A study of Mus musculus with 6 samples.

Results

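The class I antigen presentation module was followed through 8 listed genes in mouse heart transplants: the heavy chain genes H2-K1, H2-D1, H2-T23 and H2-M3, the light chain gene B2m, the peptide transporter genes Tap1 and Tap2, and the tapasin gene Tapbp. Members were all probe sets that the platform annotation assigns to these genes, and 23 of the 22626 probe sets other than controls were assigned to exactly 1 of them. They covered 7 of the 8 genes: 4 probe sets for H2-K1, 9 for H2-D1, 1 for H2-M3, 2 for B2m, 4 for Tap1, 1 for Tap2 and 2 for Tapbp. H2-T23 had no probe set of its own. A further 5 probe sets are annotated to a member together with other genes and are described apart.

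Total RNA of cardiac grafts was measured on 6 oligonucleotide arrays, 1 array for each group. The groups were an untreated syngraft, in which donor and recipient are genetically alike, an untreated allograft, in which they differ, and allografts from mice given ABH4, BH4, NIL or CsA. BH4, or tetrahydrobiopterin, is a cofactor that nitric oxide synthases need, and its 4-amino analog ABH4 is an antagonist of it. The pteridines were dosed alike, with 50 mg/kg every 8 h. NIL, or N-imino ethyl-L-lysine, inhibits the inducible nitric oxide synthase, and its dose was 5 mg/kg every 8 h. CsA, or cyclosporin A, inhibits calcineurin and with it T cell activation, and its dose was 15 mg/kg every 24 h. The strains, the age and sex of the mice, the day of graft removal and any pooling of grafts are not stated in the labels. With 1 array per group there is no spread between replicates, so no test was made, no p-value is given, and every difference below is a difference between 2 arrays.

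Class I molecules display peptides from inside the cell to CD8+ T cells. Peptides made by the proteasome are carried into the endoplasmic reticulum by the transporter of Tap1 and Tap2, tapasin holds an empty class I molecule beside that transporter, and a loaded complex of heavy chain, B2m and peptide moves to the cell surface. Interferon-gamma raises most genes of this route. The classical heavy chains of H2-K1 and H2-D1 are highly polymorphic between mouse strains and are themselves targets of graft rejection. A probe set designed on 1 allele may therefore bind the RNA of another allele less well, and because the strains are not given, allele binding and RNA amount cannot be told apart for the heavy chains.

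The windows from 250 bases before to 50 bases after the annotated start are shown for 5 members as examples. By their brightest probe sets all 5 were higher in the allograft, though B2m by under 2-fold (1.65-fold). Of the 4 motifs named below, all 5 windows share ATTGG alone, which is in 37.4% of all windows. Tapbp was higher as well and its window holds ATTGG, but it is not shown. The sequences are RefSeq's for build GRCm38.p6, which is the C57BL/6J strain and not necessarily that of the mice here. Capitals mark every match, on either strand, to 4 short motifs: GAAA followed after 2 free bases by GAAA (as in interferon-stimulated response elements), TTCNNNGAA (as in cytokine response elements), TGACGC (as in the X2 box) and ATTGG (as in the Y box).
H2-K1, chr17:34000284-34000583, minus strand: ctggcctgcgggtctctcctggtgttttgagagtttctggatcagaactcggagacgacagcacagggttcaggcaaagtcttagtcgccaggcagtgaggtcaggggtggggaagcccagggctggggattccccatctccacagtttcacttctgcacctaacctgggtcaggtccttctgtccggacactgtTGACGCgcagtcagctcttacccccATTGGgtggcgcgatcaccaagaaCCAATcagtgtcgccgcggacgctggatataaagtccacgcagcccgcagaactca
H2-D1, chr17:35262844-35263143, plus strand: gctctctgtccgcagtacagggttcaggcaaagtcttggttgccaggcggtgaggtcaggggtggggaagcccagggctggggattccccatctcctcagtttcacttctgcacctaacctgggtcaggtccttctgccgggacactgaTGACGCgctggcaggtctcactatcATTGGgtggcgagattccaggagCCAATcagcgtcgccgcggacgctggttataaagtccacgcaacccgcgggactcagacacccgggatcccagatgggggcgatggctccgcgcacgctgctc
H2-M3, chr17:37269984-37270283, plus strand: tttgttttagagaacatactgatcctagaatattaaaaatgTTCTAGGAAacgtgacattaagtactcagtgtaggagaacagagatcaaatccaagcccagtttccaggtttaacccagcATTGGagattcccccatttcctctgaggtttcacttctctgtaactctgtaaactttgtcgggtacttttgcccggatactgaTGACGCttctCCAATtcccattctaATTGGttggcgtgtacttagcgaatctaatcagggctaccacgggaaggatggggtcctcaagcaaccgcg
B2m, chr2:122147437-122147736, plus strand: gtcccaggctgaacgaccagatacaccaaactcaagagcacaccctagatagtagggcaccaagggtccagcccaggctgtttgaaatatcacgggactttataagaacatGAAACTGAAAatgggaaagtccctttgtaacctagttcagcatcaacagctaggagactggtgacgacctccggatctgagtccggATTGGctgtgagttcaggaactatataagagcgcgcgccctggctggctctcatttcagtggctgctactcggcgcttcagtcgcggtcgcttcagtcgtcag
Tap1, chr17:34187306-34187605, plus strand: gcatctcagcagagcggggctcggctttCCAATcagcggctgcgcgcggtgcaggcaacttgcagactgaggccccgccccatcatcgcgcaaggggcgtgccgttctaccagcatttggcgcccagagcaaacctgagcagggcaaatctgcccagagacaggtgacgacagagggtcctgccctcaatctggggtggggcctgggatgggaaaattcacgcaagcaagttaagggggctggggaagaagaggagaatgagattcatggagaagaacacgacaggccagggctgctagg

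In H2-K1, H2-D1 and H2-M3 the letters TGACGC were followed on the same strand by ATTGG exactly 25 bases further on, counted from start to start. This pair, looked for after the matches had been seen, occurred in 6 of 32851 promoter windows (0.0183%), which belonged to 5 genes including these 3. Because the spacing was chosen from these matches, the presence of these 3 genes was fixed in advance and is no separate result. H2-K1 enters the count through both of its listed windows. TGACGC alone was in 7.40% of the windows and ATTGG alone in 37.4%. The spaced pair of GAAA was in 3.44% of all windows and occurred in B2m, 139 bases before the start, and in H2-T23. TTCNNNGAA was in 8.30% of all windows and, among the members, in H2-M3. The Tap1 window held only 1 ATTGG. Tap1 and Psmb9, which encodes an interferon-inducible proteasome subunit, start 226 bases apart on opposite strands, and their windows overlap by 275 bases. H2-K1 has a second listed window, 14 bases away, with the same matches. Matches are descriptions of these letters in the reference strain and say nothing of binding in the grafts. Only exact letters were searched, so a window without a match may still hold a variant of the same element. B2m, for example, has tgacga before its ATTGG, 1 letter away from TGACGC and left unmarked. The lack of a match to the spaced GAAA pair likewise does not show that a heavy chain window lacks an interferon response element.

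The grafts carried heart transcripts on every array: all 10 cardiomyocyte markers (such as Myh6, Actc1 and Tnnt2) were above the detection floor on all 6 arrays, with a summed signal between 44230 and 57540. Leukocyte markers differed far more. The summed signal of 13 of them was 2699 in the syngraft, 12920 in the untreated allograft, 12980 with ABH4, 10260 with BH4, 13330 with NIL and 3957 with CsA, and 7 of the 13 were at the floor in the syngraft and 5 with CsA. The BH4 array stood apart by transcripts of salivary secretions: Bpifa2 had a signal of 5806 there and at most 56.2 on any other array. The deposited array medians lay between 77.6 and 88.5, and the 3' to 5' signal ratio of Actb, a sign of RNA integrity, between 1.03 and 1.13.

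Signals are the deposited intensities after each array was rescaled to a common median. Signals under a floor of 34.8, the 30th percentile of all values, were set to that floor before log2 was taken, and a fold against an array at the floor is given as at least that size. A probe set is counted as higher or lower where 2 arrays differ at least 2-fold. Of the 23 member probe sets, 16 were above the floor on all 6 arrays, 4 on some and 3 on none. Fold differences are taken between arrays within a probe set. Ranks by signal and summed signals pool probe sets whose probes may bind unequally, and serve as descriptions of an array.

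**Figure D1:**
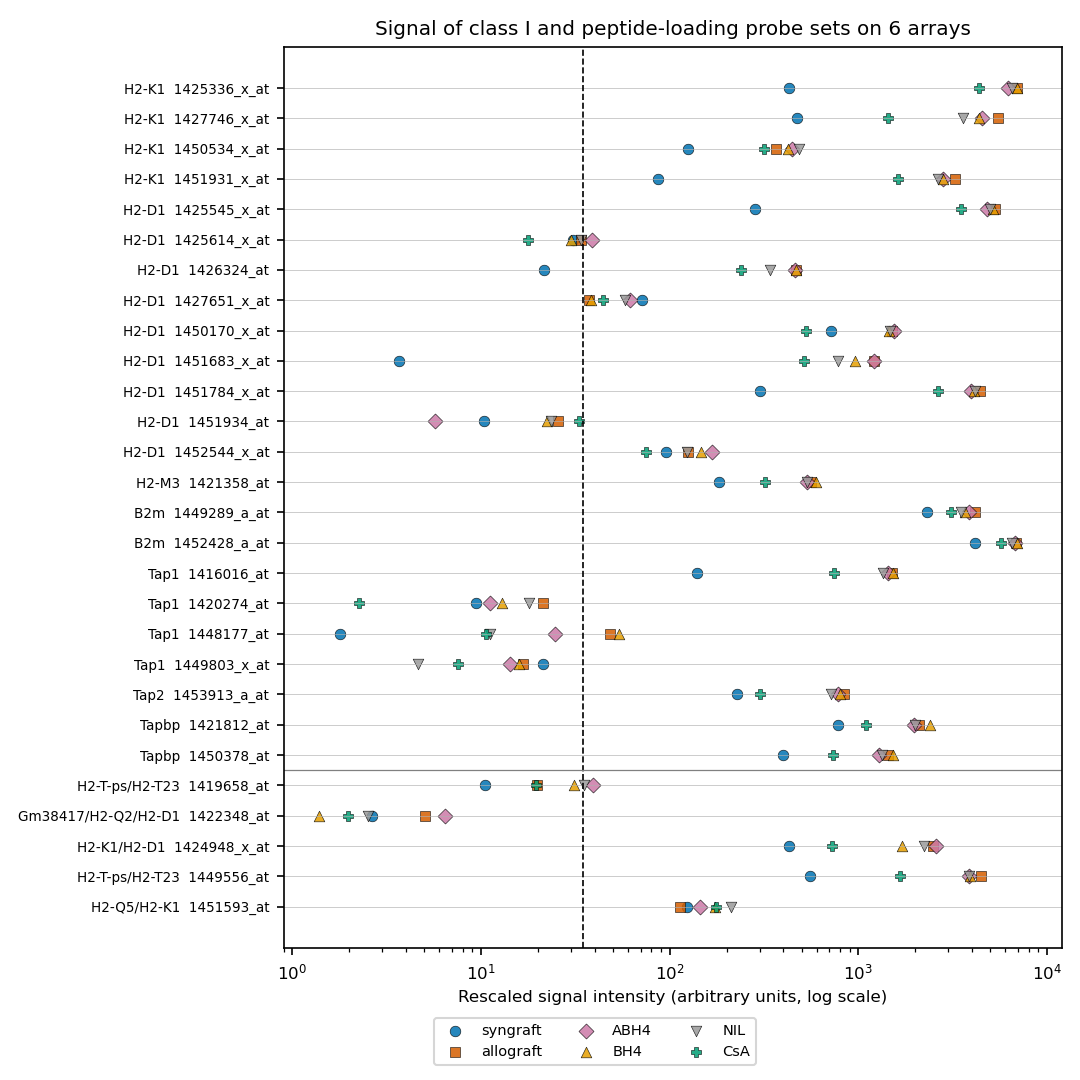
Rescaled signal intensity (log axis) of the 23 member probe sets, and under the grey line of the 5 probe sets annotated to several genes, on the 6 arrays; each marker is 1 array and the dashed line is the floor of 34.8. For most bright probe sets the syngraft lies lowest, the untreated, ABH4, BH4 and NIL allografts lie close together, and CsA lies between.

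The untreated allograft set beside the syngraft shows the module in a graft that meets alloimmunity and in one that does not. Transcripts of class I heavy chains, of the peptide transporter and of tapasin were higher in the allograft, and those of the light chain less so. By their brightest probe sets H2-K1 and H2-D1 were 16.2-fold and 18.8-fold higher, Tap1 was 10.7-fold, Tap2 3.67-fold, H2-M3 3.09-fold and Tapbp 2.69-fold higher, and B2m was 1.65-fold higher. At least 2-fold higher were 14 of the 23 probe sets, where 6.22% of all probe sets were, and 0 were at least 2-fold lower, where 4.25% of all were. The median log2 difference of the 23 was 1.55, against 0.00 over all probe sets. Of the 9 others, 4 were at the floor on both arrays, both B2m probe sets were 1.65-fold and 1.78-fold higher, 1 Tap1 probe set was above the floor in the allograft alone (at least 1.39-fold), and 2 H2-D1 probe sets were 1.32-fold higher and 1.90-fold lower. Strain differences, and differences between single grafts, cannot be told apart from alloimmunity here.

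H2-K1 encodes a classical heavy chain. Its probe set 1425336_x_at had signals of 429 in the syngraft, 6938 in the untreated allograft, 6215 with ABH4, 6931 with BH4, 6524 with NIL and 4377 with CsA. The 5 allografts were all at least 10-fold above the syngraft, and CsA was the lowest of them. Probe set 1451931_x_at ran from 86.5 in the syngraft to 3268 in the untreated allograft, 37.8-fold, with 2804, 2809, 2645 and 1629 under ABH4, BH4, NIL and CsA. Probe set 1427746_x_at had 474 and 5512, 11.6-fold, and 4541, 4377, 3563 and 1443 in the same order of treatments. The dimmer 1450534_x_at had 125 and 364, 2.92-fold, and 444, 424, 485 and 317. All 4 H2-K1 probe sets were thus higher in the allograft, by factors that ranged from 2.92 to 37.8.

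H2-D1 encodes the other classical heavy chain measured here, and its 9 probe sets did not move alike. Probe set 1425545_x_at had signals of 282 in the syngraft, 5302 in the untreated allograft, 4783 with ABH4, 5184 with BH4, 4961 with NIL and 3479 with CsA. Its allograft values were 12.4-fold to 18.8-fold above the syngraft. Probe set 1451784_x_at had 299.7, 4424, 3932, 4079, 4132 and 2651 in that order of arrays, again with the syngraft lowest and CsA lowest among the allografts. Probe set 1451683_x_at was far below the floor in the syngraft and had 1213 in the untreated allograft, at least 34.9-fold, then 1211, 959, 778 and 515 with ABH4, BH4, NIL and CsA. Probe set 1426324_at, the only H2-D1 set above the floor in the allografts whose suffix is not _x_at, was also at the floor in the syngraft and had 465, 462, 465, 342 and 238 in the allografts, at least 13.4-fold for the untreated one.

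The other H2-D1 probe sets differed less, or in the other direction. Probe set 1450170_x_at had 712 in the syngraft, 1499 in the untreated allograft, 1538 with ABH4, 1444 with BH4, 1468 with NIL and 527 with CsA. Its syngraft signal was well above the floor, so its difference of 2.11-fold does not come from a floor, and the CsA array was below the syngraft. That difference was 0.89 on the log2 scale in the values as deposited and 0.81 after quantile normalization, under 2-fold in both. Probe set 1452544_x_at had 95.2 and 125, with 167, 147, 123 and 74.8 in the treated allografts. Probe set 1427651_x_at went the other way, with 71.1 in the syngraft, 37.5 in the untreated allograft, 61.5 with ABH4, 38.2 with BH4, 58.1 with NIL and 44.5 with CsA, all near the floor. The difference of 1.90-fold lower became 2-fold lower in the deposited values (log2 difference of -1.11). The remaining 1425614_x_at and 1451934_at were at the floor on 5 or on all 6 arrays. Probe sets whose names end in _x_at contain probes that also match other sequences, which in this family includes other class I genes, and 12 of the 23 member probe sets are of that kind. Among the other 11, 6 passed 2-fold upward in the allograft and 0 downward, where 6.22% and 4.25% of all probe sets of any suffix did.

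H2-M3 encodes a nonclassical heavy chain that presents N-formylated peptides, such as those of bacteria and mitochondria. Its signals were 182.5 in the syngraft, 563 in the untreated allograft, 536.5 with ABH4, 594 with BH4, 532 with NIL and 321 with CsA. The 4 allografts other than CsA were all between 532 and 594. H2-T23, which encodes the heavy chain of Qa-1, a ligand of the inhibitory receptor pair of Klrd1 and Klrc1, is covered only by probe sets annotated to H2-T-ps and H2-T23 together. The brighter of these, 1449556_at, had 557 in the syngraft, 4449 in the untreated allograft, 3842, 3919 and 3847 with ABH4, BH4 and NIL, and 1669 with CsA. Which of the 2 genes gives this signal cannot be told apart. Of the other shared probe sets, 1424948_x_at (H2-K1 and H2-D1) was 5.82-fold higher in the untreated allograft, with 429.7 and 2500, and 1451593_at (H2-Q5 and H2-K1) was not higher, with 123 and 114. The last 2 shared probe sets were at the floor on both arrays.

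B2m encodes the light chain that every class I molecule needs. Probe set 1452428_a_at had signals of 4169 in the syngraft, 6881 in the untreated allograft, 6729 with ABH4, 6906 with BH4, 6531 with NIL and 5699 with CsA. Probe set 1449289_a_at had 2315, 4128, 3856, 3682, 3498 and 3113 in that order. The syngraft was lowest and CsA second lowest for both probe sets. The first ranked 149th of 22626 probe sets by signal in the syngraft and 22nd to 49th in the allografts, and H2-K1 by 1425336_x_at ranked 30th to 33rd in the allografts other than CsA. Whether differences of these probe sets are compressed so near the top of the range was not tested.

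Tap1 and Tap2 encode the subunits of the transporter that brings peptides into the endoplasmic reticulum. Tap1, by its bright probe set 1416016_at, had 140 in the syngraft, 1504 in the untreated allograft, 1436 with ABH4, 1530 with BH4, 1344 with NIL and 744 with CsA. Its other 3 probe sets were at or near the floor: 1448177_at reached 48.2 and 53.6 in the untreated and BH4 allografts and was at the floor elsewhere, and 2 were at the floor on all 6 arrays. Tap2 had 228 in the syngraft, 836 in the untreated allograft, 781, 799.8 and 719.6 with ABH4, BH4 and NIL, and 301 with CsA. Tap1 and Tap2 had the same order of syngraft, CsA and other allografts, with the CsA value of Tap2 close to its syngraft value.

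Tapbp encodes tapasin. Probe set 1421812_at had 784 in the syngraft, 2105 in the untreated allograft, 1964 with ABH4, 2410 with BH4, 1986 with NIL and 1095 with CsA. Probe set 1450378_at had 397, 1432, 1284, 1527, 1333 and 732 in that order. The probe sets gave 2.69-fold and 3.61-fold higher values in the untreated allograft, and BH4 was the highest array for both.

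The CsA array shows the module in an allograft under calcineurin inhibition. Most of the module was lower with CsA than in the untreated allograft, but all 4 H2-K1 probe sets, 4 of the 9 H2-D1 probe sets and the bright one of Tap1 stayed at least 2-fold above the syngraft, while Tap2, Tapbp, H2-M3 and B2m lay within 2-fold of it. At least 2-fold lower were 6 of the 23 probe sets, where 3.81% of all probe sets were: 2 of H2-K1, 2 of H2-D1, the bright one of Tap1, and Tap2. None of the 23 was at least 2-fold higher, where 2.69% of all were. At a 1.5-fold threshold 14 were lower, where 11.8% of all probe sets were. The median log2 difference of the 23 was -0.74, against 0.00 over all probe sets. The counts depend on the scaling: 4 were lower without rescaling, where the array medians differed by 0.19 on the log2 scale, and 3 after quantile normalization. Shares of all probe sets are not given under these other scalings, so these counts are not set against a background. H2-K1 by 1451931_x_at (2.01-fold) and Tap1 (2.02-fold) lay at the threshold and were -0.82 and -0.83 on the log2 scale in the deposited values.

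Within H2-K1 the CsA values were 3.82-fold lower by 1427746_x_at, 2.01-fold by 1451931_x_at, and 1.59-fold by 1425336_x_at. By 1450534_x_at the signals were 364 and 317, a log2 difference of -0.20 that was 0.029 after quantile normalization. Within H2-D1 they ranged from 2.84-fold lower by 1450170_x_at and 2.36-fold lower by 1451683_x_at to 1.52-fold lower by 1425545_x_at, and 1427651_x_at was 1.19-fold higher. The CsA difference of a heavy chain gene thus depended on the probe set by which it was read. Tap2 was 2.78-fold lower, both Tapbp probe sets 1.92-fold and 1.96-fold lower, H2-M3 1.76-fold lower, and B2m 1.33-fold and 1.21-fold lower. The shared probe sets 1424948_x_at and 1449556_at were 3.46-fold and 2.67-fold lower.

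Against the syngraft, 9 of the 23 probe sets were at least 2-fold higher with CsA, where 2.11% of all probe sets were, and 0 were 2-fold lower, where 1.53% of all were. All 4 H2-K1 probe sets, 4 of H2-D1 and the bright one of Tap1 made up the 9. By their brightest probe sets H2-K1 and H2-D1 lay 10.2-fold and 12.4-fold above the syngraft, and Tap1 5.31-fold. Tap2 was 1.32-fold, Tapbp 1.40-fold and 1.84-fold, H2-M3 1.76-fold, and B2m 1.35-fold and 1.37-fold above it. Put as a share of the log2 difference between untreated allograft and syngraft, CsA kept 83.5% for H2-K1 by 1425336_x_at, 81.0% for H2-D1 by 1451784_x_at, 70.4% for Tap1, 50.1% for H2-M3, 33.8% and 47.6% for Tapbp, and 21.4% for Tap2. The share for H2-K1 by 1427746_x_at was 45.4%, and H2-D1 by 1450170_x_at lay below the syngraft. Because the strains are not given, allele binding and RNA amount cannot be told apart in the shares of the heavy chains. These shares therefore do not show that heavy chain RNA responded less to CsA than that of Tap2 or Tapbp.

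Leukocyte transcripts moved with these results. With CsA 12 of the 13 leukocyte markers were at least 2-fold lower than in the untreated allograft, where 4.06% of all genes were. Against the syngraft 0 of the 13 were counted as at least 2-fold higher with CsA, where 2.28% of all genes were. That count of 0 is near the background. In that comparison 5 of the 13 were at the floor on both arrays. Cd8a and Cd3g had only bounds there, at least 1.98-fold and 1.82-fold. Cd3d, a chain of the T cell receptor complex, had 495 in the untreated allograft and did not exceed the floor on the syngraft and CsA arrays. Ptprc, the pan-leukocyte antigen CD45, had 523, 2596 and 766 in syngraft, untreated allograft and CsA. Endothelial markers moved the opposite way: 3 of 8 were at least 2-fold lower in the untreated allograft than in the syngraft, where 4.81% of all genes were, and the median was -0.76. Of 10 macrophage markers, 3 were at least 2-fold higher in that comparison, where 6.87% of all genes were, with a median of 0.58. In whole grafts, fewer cells of a type and less RNA per cell cannot be told apart, and the part of these cells in the class I differences was not tested.

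**Figure D2:**
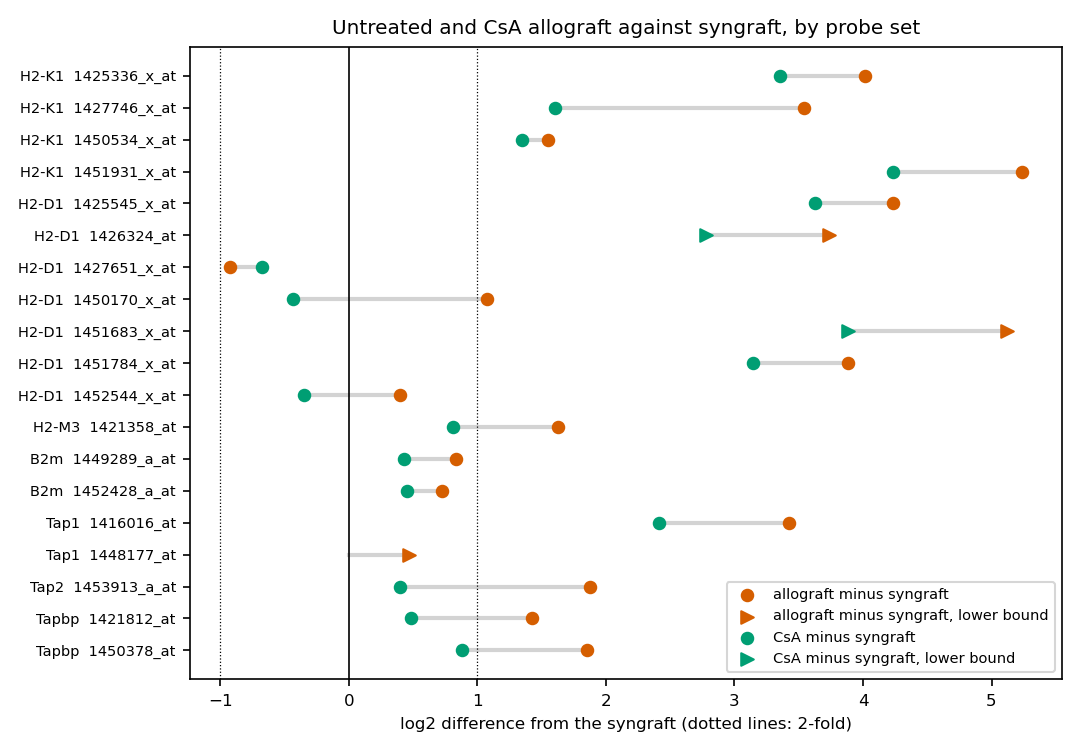
Log2 difference from the syngraft of the untreated allograft (orange) and of the CsA allograft (green) for the 19 member probe sets above the floor on the syngraft or the untreated allograft array; triangles are lower bounds because the syngraft was at the floor, and the CsA point of 1448177_at is left out because both arrays were at the floor. H2-K1, most bright H2-D1 and Tap1 probe sets stay right of the 2-fold line with CsA, while Tap2, Tapbp, H2-M3 and B2m lie left of it.

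Under the pteridines and NIL the module stayed close to the untreated allograft. None of the 23 probe sets differed at least 2-fold from it with BH4, ABH4 or NIL. Over all probe sets the shares at least 2-fold higher and lower were 1.33% and 0.495% with BH4, 0.685% and 0.358% with ABH4, and 1.13% and 1.07% with NIL, so that a count of 0 among 23 is near the background. The 3 comparisons share the untreated array. With 1 array each, this does not show that the treatments left the module as it was.

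With BH4 the 23 log2 differences from the untreated allograft ran from -0.34, for H2-D1 by 1451683_x_at, to 0.23, for H2-D1 by 1452544_x_at. H2-K1 by 1425336_x_at had 6931 and 6938, and Tap1 had 1530 and 1504. Both Tapbp probe sets were 1.15-fold and 1.07-fold higher with BH4. The shared probe set 1424948_x_at of H2-K1 and H2-D1 was 1.46-fold lower. BH4 was the allograft with the highest signal for H2-M3 and both Tapbp probe sets. It was also highest for Tap1 by 1416016_at and 1448177_at, B2m by 1452428_a_at and H2-D1 by 1426324_at. For Tap2, every H2-K1 probe set and the other probe sets of H2-D1, B2m and Tap1 another allograft was highest. None of these differences can be set against any spread.

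With ABH4 the differences ran from -0.47 or lower, for the dim Tap1 probe set 1448177_at, to 0.71, for H2-D1 by 1427651_x_at. The first is a bound, as that Tap1 probe set was at the floor with ABH4. H2-K1 was 1.21-fold lower by 1427746_x_at and 1.22-fold higher by 1450534_x_at. Tap2 and both Tapbp probe sets were 1.07-fold to 1.12-fold lower, and Tap1 had 1436 and 1504, a difference whose sign turned after quantile normalization. With NIL the differences ran from -0.64 to 0.63, and H2-K1 by 1427746_x_at and H2-D1 by 1451683_x_at were 1.55-fold and 1.56-fold lower. These were the 2 of 23 probe sets at least 1.5-fold lower with NIL, where 6.26% of all were, a count near the background. The H2-K1 difference was -0.48 on the log2 scale in the deposited values and after quantile normalization, under 1.5-fold in both. Tap2 was 1.16-fold lower with NIL. Tap1 and the Tapbp probe sets lay within 1.12-fold of the untreated allograft, and their signs turned under another scaling: those of Tapbp to 0.065 and 0.045 on the log2 scale in the deposited values, where the array medians differed by 0.15, and that of Tap1 to 0.052 after quantile normalization.

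BH4 and ABH4 differ by the amino group that ABH4 carries at position 4, and were given at the same dose and interval, so that their arrays can be set side by side. The arrays differed by more than the compound, since the BH4 array carried salivary transcripts (Bpifa2 at 5806, against 14.9 with ABH4). Whether this affects the differences below was not tested. This was the single pair of related compounds compared. None of the 23 probe sets differed at least 2-fold between them, where 0.517% of all probe sets were at least 2-fold higher with ABH4 and 0.84% lower. H2-D1 by 1427651_x_at was 1.61-fold higher with ABH4, with 61.5 and 38.2, near the floor. The Tapbp probe sets were 1.23-fold and 1.19-fold lower with ABH4, H2-M3 1.11-fold lower and Tap1 1.07-fold lower. Tap2 had 781 with ABH4 and 799.8 with BH4. H2-K1 by 1425336_x_at had 6215 with ABH4 and 6931 with BH4 (log2 difference of -0.16, or 0.013 after quantile normalization), and by 1427746_x_at it had 4541 and 4377. No interval can be given for these differences without replicates, and they do not show that the compounds act alike.

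**Figure D3:**
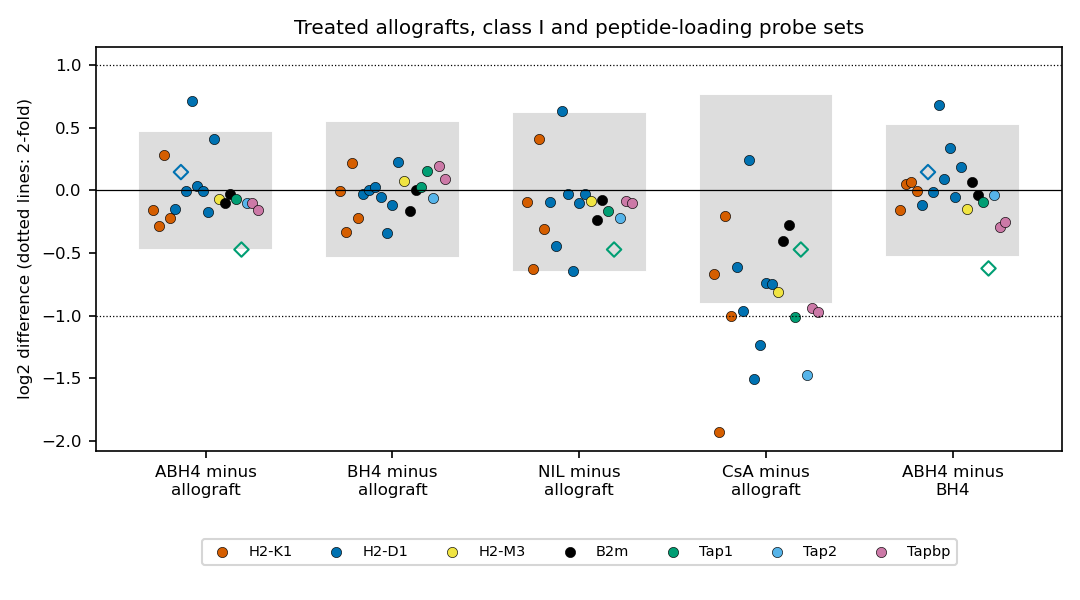
Log2 difference of the member probe sets, coloured by gene, for each treated allograft against the untreated one and for ABH4 against BH4; grey boxes span the 5th to 95th percentile of all 22626 probe sets, open diamonds are bounds from an array at the floor, and probe sets at the floor on both arrays are left out. No member passes a 2-fold line except with CsA, where 6 lie at or below the lower one.

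Other genes of the route were taken from lists, each gene by its brightest probe set. Among genes that make or trim peptides or fold and load class I molecules, 6 of the 10 measured were at least 2-fold higher in the untreated allograft than in the syngraft, where 6.87% of all genes were, and 0 were lower, with a median log2 difference of 2.12 against 0.00 over all genes. Psmb9, Psmb8 and Psmb10, the catalytic subunits of the immunoproteasome, were 12.2-fold, 8.59-fold and 8.42-fold higher. Psmb9, the head-to-head neighbour of Tap1, had 214 in the syngraft, 2602 in the untreated allograft, 2295 with ABH4, 2110 with BH4, 2317 with NIL and 747 with CsA. The other 3, chosen after their values were seen, were the proteasome activator subunit Psme1 (4.40-fold), the peptide-trimming protease Erap1 (4.32-fold) and the tapasin-related Tapbpl (8.27-fold). The 4 not past 2-fold, also named after the fact, serve protein folding and transport at large: calnexin Canx had 1076 and 1260, calreticulin Calr 2376 and 3044, the disulfide isomerase Pdia3 1245 and 1767, and the translocon subunit Sec61a1 705 and 661. With CsA the same 6 genes were at least 2-fold lower than in the untreated allograft, where 4.06% of all genes were. The differences ran from 2.10-fold for Erap1 to 3.62-fold for Psmb8. Of the 10 genes, 5 stayed at least 2-fold above the syngraft, where 2.28% of all genes were. For Tapbpl another probe set differed in sign between CsA and the untreated allograft.

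Among transcription factors that act on class I genes or on their interferon response, 6 of 10 measured were at least 2-fold higher in the untreated allograft, where 6.87% of all genes were, and 0 lower, where 4.81% were, with a median of 1.04. Irf1, a factor induced by interferon-gamma that binds class I promoters, had 551 in the syngraft, 2994 in the untreated allograft, 2621 with ABH4, 2789 with BH4, 2287 with NIL and 1553 with CsA. Irf2 was at least 4.68-fold and Irf8 4.05-fold higher. With CsA 0 of the 10 were at least 2-fold lower, a count near the 4.06% of all genes, and the median was -0.51. Against the syngraft 3 of the 10 were at least 2-fold higher with CsA, where 2.28% of all genes were. Nlrc5, a class I transactivator, was not analysed here.

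Other heavy chain genes of the class I fold were mostly dim or close between arrays: of 15 measured, 2 were at least 2-fold higher in the untreated allograft and 0 lower, and 5 were at the floor on both arrays, with a median of 0.00. Over all genes the shares were 6.87% higher and 4.81% lower, so these counts are near the background. Cd1d1, which presents lipids, was 4.50-fold higher, with 38.9 and 175, and H2-T24 was 3.58-fold higher, with 40.7 and 146. Cd1d2 was at least 1.92-fold lower, as its allograft signal was under the floor. Among receptors that read class I molecules, 5 of 8 measured were at least 2-fold higher, where 6.87% of all genes were, and 3 were at the floor on both arrays. Klrd1, the CD94 chain that pairs with Klrc1, was at least 7.24-fold higher. The coreceptor chain Cd8a differed by at least 4.98-fold and its partner Cd8b1 by at least 4.08-fold. With CsA the same count, 5 of 8, was at least 2-fold lower than in the untreated allograft, where 4.06% of all genes were. Against the syngraft 1 of the 8, Klrd1, was counted as higher with CsA (at least 2.49-fold), where 2.28% of all genes were. At the floor on both of these arrays were 5 of the 8.

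**Figure D4:**
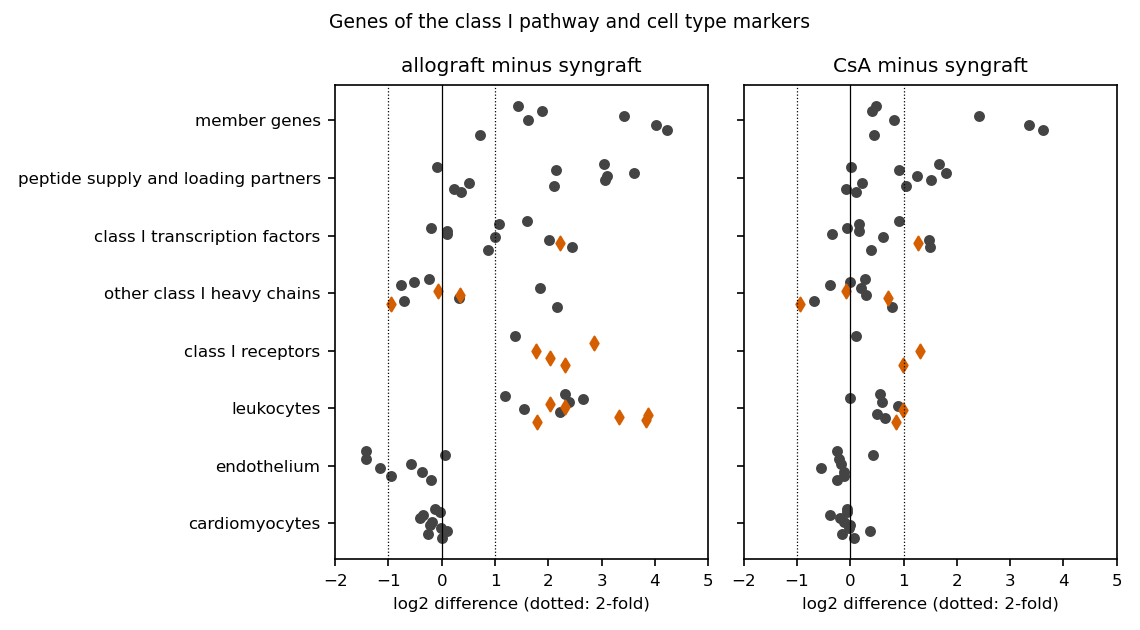
Log2 difference from the syngraft of the untreated allograft (left) and the CsA allograft (right) for the genes of 8 lists, each by its brightest probe set; orange diamonds are bounds from an array at the floor, and genes at the floor on both arrays are left out. In the CsA panel leukocyte markers lie left of the upper 2-fold line, some of them as bounds. Beyond it lie 3 member genes, 5 peptide supply genes, 3 transcription factors and 1 class I receptor, some also as bounds.

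The average pattern of the 7 measured members, each by its brightest probe set and centred on its own mean, was -1.90 in the syngraft, 0.58 in the untreated allograft, 0.48 with ABH4, 0.61 with BH4, 0.47 with NIL and -0.25 with CsA on the log2 scale. Among 8087 other genes above the floor on all 6 arrays, the nearest patterns, by root mean square distance over the 6 arrays, were those of Blvrb (0.053), Irf7 (0.072), Parp9 (0.099), Irf1 (0.099) and Lgals3 (0.11). Blvrb, biliverdin reductase B, had signals of 82.7, 436, 437, 453, 402 and 271 in syngraft, untreated allograft, ABH4, BH4, NIL and CsA. Irf7, a factor of the interferon response, had 261.5, 1332, 1325, 1423, 1150 and 784 in that order. Each of the 5 was lowest in the syngraft and second lowest with CsA. That order follows from choosing the genes by closeness to the member average and is no separate result.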

How the data were processed

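The authors deposited 1 signal intensity for each of 22690 probe sets on each of 6 arrays. The deposited intensities are linear, and the mean of each array after trimming 2% from each end was 200.1, so they had been scaled before deposit. Scanner software, summarisation and background correction are not given in the sources used here. Genes come from the platform annotation: 20380 probe sets had 1 gene symbol, 691 several and 1555 none.

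Each array was rescaled to the mean of the 6 medians (between -0.09 and 0.10 on the log2 scale), floored at 34.8 and log2-transformed in Python 3.11.15 with NumPy 2.4.6 and pandas 2.3.3. Comparisons are log2 differences between 2 arrays, counted at 2-fold. The calculation was tested on simulated data. Members and lists were chosen with earlier results of these data known. Named genes were all member probe sets, the 3 genes per pathway list furthest from 0 in allograft against syngraft, Psmb8, Psmb9, Nlrc5, Irf1 and Cd8a, and the 5 nearest patterns; 1 further gene of this rule is not reported here. Marker lists covered leukocytes, macrophages, cardiomyocytes, endothelium and housekeeping genes. Alternatives were the deposited values, quantile normalization, floors at the 10th and 50th percentile, a 1.5-fold threshold, means per gene and, added after seeing the data, leaving out _x_at probe sets. Promoter windows came from RefSeq, GRCm38.p6.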

Additional observations from a re-analysis of the deposited data

How the results depend on the processing

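No paired analysis was possible because each group has 1 array, and no replicate could be left out for the same reason. No log2 difference of at least 2-fold changed sign under another scaling or floor. Of 161 log2 differences (23 probe sets in 7 comparisons), 161 moved by under 0.25 on the deposited values, 157 after quantile normalization, 135 with a floor at the 10th percentile and 147 at the 50th. Counts past 2-fold that moved by over 1.5 times were as follows. On the deposited values 1 was lower in allograft against syngraft. After quantile normalization 3 were lower in CsA against allograft. With a floor at the 10th percentile 1 was lower in CsA against syngraft, 1 in ABH4 against allograft, 2 in NIL against allograft and 2 in ABH4 against BH4. At 1.5-fold 1 was lower in allograft against syngraft, 14 in CsA against allograft, 1 in CsA against syngraft, 2 in NIL against allograft and 1 in ABH4 against BH4. Also at 1.5-fold 1 was higher in each of ABH4 against allograft, NIL against allograft and ABH4 against BH4. With 1 mean per gene, 5 of 7 genes were higher in allograft against syngraft, 1 lower in CsA against allograft and 2 higher in CsA against syngraft. Without _x_at probe sets these 3 counts were 6, 2 and 2 of 11. The causes were not tested, beyond the lower number of features in the last 2 settings. Shares over all features are given for 2 of these counts, both at 1.5-fold against the untreated allograft: 11.8% lower with CsA and 6.26% with NIL. The other counts of this paragraph are not set against a background. Probe sets under the floor of 34.8 carry no usable difference.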

Other observations

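The genes between Tapbp and Tap2 in the RefSeq order were read as well, a region chosen after other values had been seen. Of its 22 protein-coding genes 21 were measured by a probe set assigned to them alone, and 17 of these are not members. Of the 17, 6 were at least 2-fold higher in the untreated allograft than in the syngraft and 0 lower, with a median log2 difference of 0.52, where 6.87% of all genes were at least 2-fold higher. They were Psmb9, Psmb8, H2-DMa (6.71-fold), Vps52 (4.70-fold), H2-Oa (2.20-fold) and B3galt4 (2.18-fold). H2-DMa and H2-Oa belong to class II peptide loading, and Vps52 to vesicle tethering. Vps52, near H2-K1 in that order, had 57.0 in the syngraft, 268 in the untreated allograft, 183 with ABH4, 209 with BH4, 198 with NIL and 139.5 with CsA. Ring1, on the other side of H2-K1, had 118 and 117 in syngraft and untreated allograft, and H2-Ke6 had 194 and 197.

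Of 9 housekeeping genes measured, 0 were at least 2-fold higher or lower in the untreated allograft than in the syngraft, where 6.87% and 4.81% of all genes were, and their median was 0.14. Hprt, a purine salvage enzyme, was furthest from 0, with 901 and 1421.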
